A study of Caenorhabditis elegans with 9 samples.

Results

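RNA of a Caenorhabditis elegans line that makes SUMO from a muscle promoter was set against RNA of the wild type. All 22548 probe sets of the array that are not control probe sets were taken, of 22625 in the table, on the 3 arrays of the transgenic line and the 3 arrays of wild type, 6 of the series' 9 arrays. Expression was measured in whole worms labelled as first-stage larvae (L1), fed OP50 bacteria and synchronised by bleaching. The myo-4 SUMO animals (line JS63) carry the transgene myo-4::his-SUMO-1, His-tagged SUMO-1 under the promoter of myo-4, an older name of unc-54, which encodes the major myosin heavy chain of body wall muscle. The aex-3 SUMO animals (line JS62) carry aex-3::his-SUMO-1, in which the aex-3 promoter drives expression in neurons. Their values are given here only beside those of myo-4 SUMO. Their arrays also entered the choice of probe sets to test and the estimate of spread used for myo-4 SUMO against N2. N2, the wild-type laboratory strain, carries no transgene. The labels name 1 line per construct, so the construct and other features of its line cannot be told apart. They give neither the copy number of the transgene nor the marker used to select transgenic animals. Each group holds 3 biological replicate populations, and this small number of arrays limits precision.

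SUMO is a small protein related to ubiquitin that is joined to lysines of other proteins by a cascade of enzymes that ends with SUMO ligases, and is removed by proteases of the ULP family. Many of its known targets lie in the nucleus, among them transcription factors, chromatin proteins and proteins of the nuclear pore. In the worm smo-1 is the gene for SUMO, and its loss disturbs embryonic development, the germ line and the vulva.

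Values are array signal (intensity, on a linear scale as deposited). A change is the log2 fold change, myo-4 SUMO minus N2, of log2(signal + 1.623), given with its SE where ± stands and with two-sided adjusted p from limma over the 14204 probe sets bright enough to test. On the arrays compared, the median signal was 24.8 to 25.7 in myo-4 SUMO and 27.6 to 28.6 in N2, while the 2% trimmed means were nearly equal. Correlations of replicate arrays, taken over probe sets that are no independent replicates, were 0.986 to 0.988 in myo-4 SUMO and 0.962 to 0.978 in N2. On the first principal component, which held 61.6% of the variance, the myo-4 SUMO scores were 19.1 to 27.6. Those of N2 replicates 1, 2 and 3 were -43.8, -39.2 and -61.8, with replicate 3 the furthest out. N2 replicate 1 stood apart on the second principal component, which held 11% of the variance. Its score was -36.9, and those of the remaining N2 arrays were 14.8 and 17.9. Values without this array are given where they change a call, a direction or a count by over 1.5 times. Markers of the adult germ line were bright in both groups in spite of the L1 label. The median oocyte and eggshell gene ranked at the 96.1 to 96.3 percentile of all probe sets in myo-4 SUMO and at the 89.8 to 94.0 percentile in N2, and the median sperm gene at the 87.8 to 90.0 and the 88.95 to 91.2 percentile.

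In myo-4 SUMO, transcripts of the nuclear pore, the proteasome, splicing proteins, DNA replication and the female germ line were more often higher than the average gene. Transcripts of the intestine, the cuticle, neurons, nuclear hormone receptors and histones were more often lower. The aex-3 SUMO line shifted likewise against N2, so these shifts are not particular to myo-4 SUMO. Among 19 oocyte and eggshell genes 17 were called higher there and 0 lower. Among 38 nuclear pore and transport genes the counts were 31 and 1. In the intestine list of 29 they were 1 and 22, and in the histone list of 30 they were 4 and 23. Over all 10768 genes they were 2653 and 2655. In myo-4 SUMO against N2, the test called 6300 of 14204 probe sets (44.4%) at an adjusted p of 0.05, with 3412 higher (24%) and 2888 lower (20.3%). The larger changes were more often falls: 369 probe sets (2.6%) rose and 755 (5.32%) fell by 2-fold or more, and at 4-fold the counts were 33 and 103. Changes had a median size of 0.38, and their SEs a median of 0.16. Every myo-4 SUMO array lay above or below every N2 array for 52.3% of probe sets. Taking 1 probe set per gene, 45.3% of 10768 genes were called, 24.2% higher and 21.1% lower, with a median change of -0.0046. By 2-fold or more, 2.56% rose and 5.6% fell. Counts for gene lists are read against these 2 shares. When each array was centred on its median, the median of all probe sets moved to 0.15 and 69.98% of calls were higher, compared with 54.2% as deposited. Quantile normalization gave 56.1%.

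**Figure D1:**
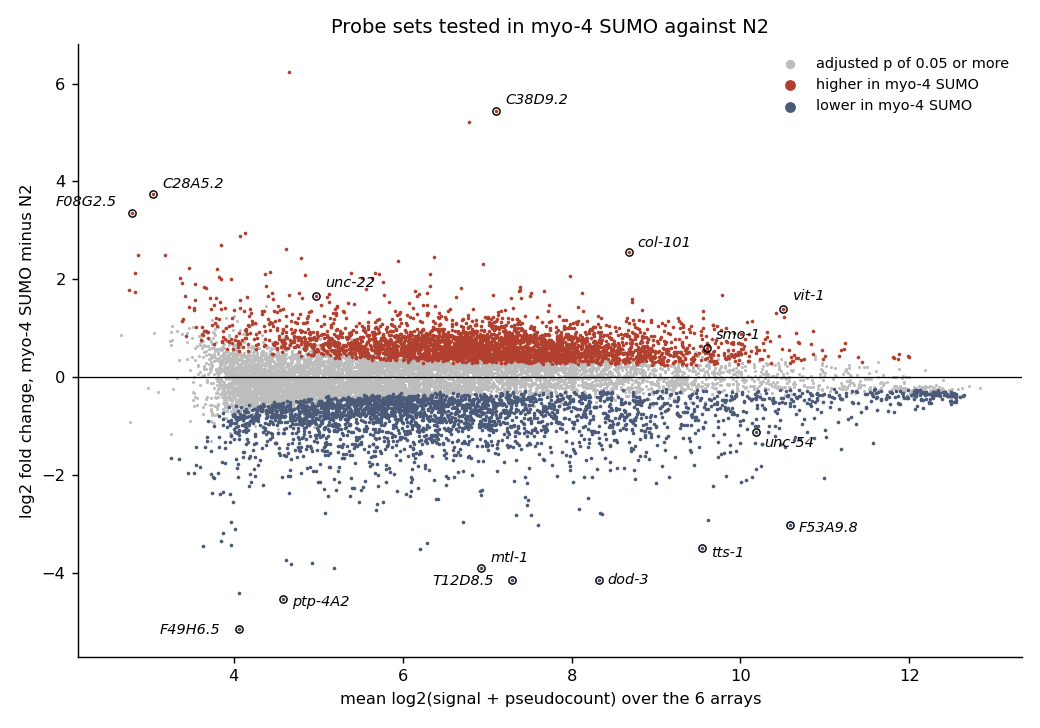
Log2 fold change, myo-4 SUMO minus N2, of the 14204 probe sets tested, against their mean log2 signal over the 6 arrays. Red probe sets were called higher and blue ones lower at an adjusted p of 0.05, circles mark named genes at their brightest probe set, and 103 probe sets fell by at least 4-fold, against 33 that rose as far.

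The gene for SUMO itself was examined first. The smo-1 signal was 1055, 927 and 887 on the myo-4 SUMO arrays, against 715, 687 and 512 on the N2 arrays. Every transgenic array was above every N2 array. The change was 0.59 ± 0.13 (limma, adjusted p = 0.00318), and the signal averaged 957 ± 87.6 in myo-4 SUMO and 638 ± 110.2 in N2 (SD, n = 3 each). Neither the probes' nor the construct's sequence was at hand, so whether the probe set detects the transgene's transcript is unknown. The gene whose promoter drives the transgene went the other way. The unc-54 signal was 628, 842 and 909.7 on the myo-4 SUMO arrays, against 2179, 1368 and 1677 on the N2 arrays, a change of -1.12 ± 0.17 (adjusted p = 0.000267). All myo-4 SUMO arrays were below all N2 arrays.

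Of the 7 SUMO pathway genes measured, which include smo-1, 6 rose and 0 fell (median 0.55). Over the alternatives the number that rose was 4, under quantile normalization, to 7, without N2 replicate 1. In aex-3 SUMO against N2, 7 rose and 0 fell. The SUMO proteases ulp-2 and ulp-5 rose by 0.74 and 0.70, and ulp-4 rose by 0.38. The SUMO ligase gei-17, a PIAS family member, rose by 0.55. The call of aos-1, a subunit of the E1 activating enzyme, was close to the threshold (0.32, adjusted p = 0.0482) and ended under 9 alternatives, with adjusted p up to 0.192, among them each fit without 1 array other than that without N2 replicate 1. The protease ulp-1 was not called (0.41, adjusted p = 0.154). Its signal was 53.4, 49.9 and 46.3 on the myo-4 SUMO arrays, against 48.5, 39.6 and 26.2 on the N2 arrays, so the groups overlapped.

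The highest change of a named gene was that of C38D9.2, known here only by its sequence name. Its signal was 869.7, 932 and 917 on the myo-4 SUMO arrays, against 18.7, 23.3 and 16.5 on the N2 arrays, a change of 5.44 ± 0.16 (adjusted p = 5.4e-10), so a signal near the array median in N2 stood far above it in the transgenic line. It was the smallest adjusted p of the comparison. A pair of probe sets that the annotation ties to no gene moved as far and were picked out after their values were seen. Probe set 184014_s_at read 199.5, 216 and 237 on the myo-4 SUMO arrays, against 2.39, 0.993 and 0.681 on the N2 arrays, near the floor of the array in N2. Probe set 184103_s_at read 639, 679 and 707 on the myo-4 SUMO arrays, against 18.8, 24.6 and 9.47 on the N2 arrays. Neither set of arrays overlapped.

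Other genes with large rises encode secreted and cuticle proteins, among others. The cuticle collagen col-101 read 1068, 952 and 949.7 on the myo-4 SUMO arrays, against 81.2, 332 and 172 on the N2 arrays, a change of 2.55 ± 0.34 that was 2.04 without N2 replicate 1. The N2 arrays differed among themselves by more than the transgenic ones did. The collagen col-143 (1.68), the saposin-like spp-23 (1.79), the enoyl-CoA hydratase ech-7 (1.67), the peroxisomal ABC transporter pmp-5 (1.73) and ule-1 (2.07) also rose among bright genes. Among dim ones, C28A5.2 (3.75), F08G2.5 (3.36) and drd-10 (2.95) rose, as did lys-10, a lysozyme gene (2.89), and ing-3, an inhibitor of growth homologue (2.63). The changes of C28A5.2 and F08G2.5 depend on the pseudocount, since their N2 signals were under 2, and ran from 1.43 to 4.77 and from 1.15 to 4.34 over the alternatives.

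The deepest falls with the pseudocount used here were those of F49H6.5 (-5.14), ptp-4A2 (-4.53) and svct-1 (-4.41), each at or near the array's floor in myo-4 SUMO. Their size depends on the pseudocount and ran from -5.93 to -2.73, from -4.92 to -2.72 and from -4.95 to -2.35 over the alternatives, while T12D8.5, a brighter gene, ran from -4.37 to -3.70. The ptp-4A2 signal was 6.58, 2.12 and 2.354 on the myo-4 SUMO arrays, against 123, 138 and 85.3 on the N2 arrays. Among brighter genes, dod-3, named for its place downstream of the FOXO factor DAF-16, read 69.4, 58.1 and 101.2 on the myo-4 SUMO arrays, against 1195, 1003 and 2025 on the N2 arrays, a change of -4.15 ± 0.29 (adjusted p = 1.49e-06). The metallothionein mtl-1, a metal-binding protein of the intestine, read 37.4, 22.2 and 32.6 on the myo-4 SUMO arrays, against 386, 318 and 832 on the N2 arrays, a change of -3.89 ± 0.39 (adjusted p = 2.26e-05). In both genes the groups lay far apart, with N2 replicate 3 the highest.

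F53A9.8, one of the brightest of the genes that fell, read 518, 439.8 and 677 on the myo-4 SUMO arrays, against 3976, 3945 and 5310.0 on the N2 arrays, a change of -3.02 ± 0.27. The long noncoding RNA tts-1 read 215, 127 and 398 on the myo-4 SUMO arrays, against 1873, 2959.5 and 2781 on the N2 arrays, a change of -3.48 ± 0.48 with a wide spread among the transgenic arrays. The lectin genes clec-76 (-3.90), clec-61 (-3.80) and clec-82 (-3.50) fell, as did scl-2 (-2.92), which encodes a secreted SCP-like protein, and the cytochrome P450 cyp-37B1 (-2.81). The lipase gene lipl-2 (-2.78) and T12D8.5 (-4.14), F43C11.7 (-3.02), C32F10.4 (-2.80) and ZC395.5 (-2.82) also fell. T22F3.11 fell at 2 probe sets, with changes of -3.82 and -3.74.

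**Figure D2:**
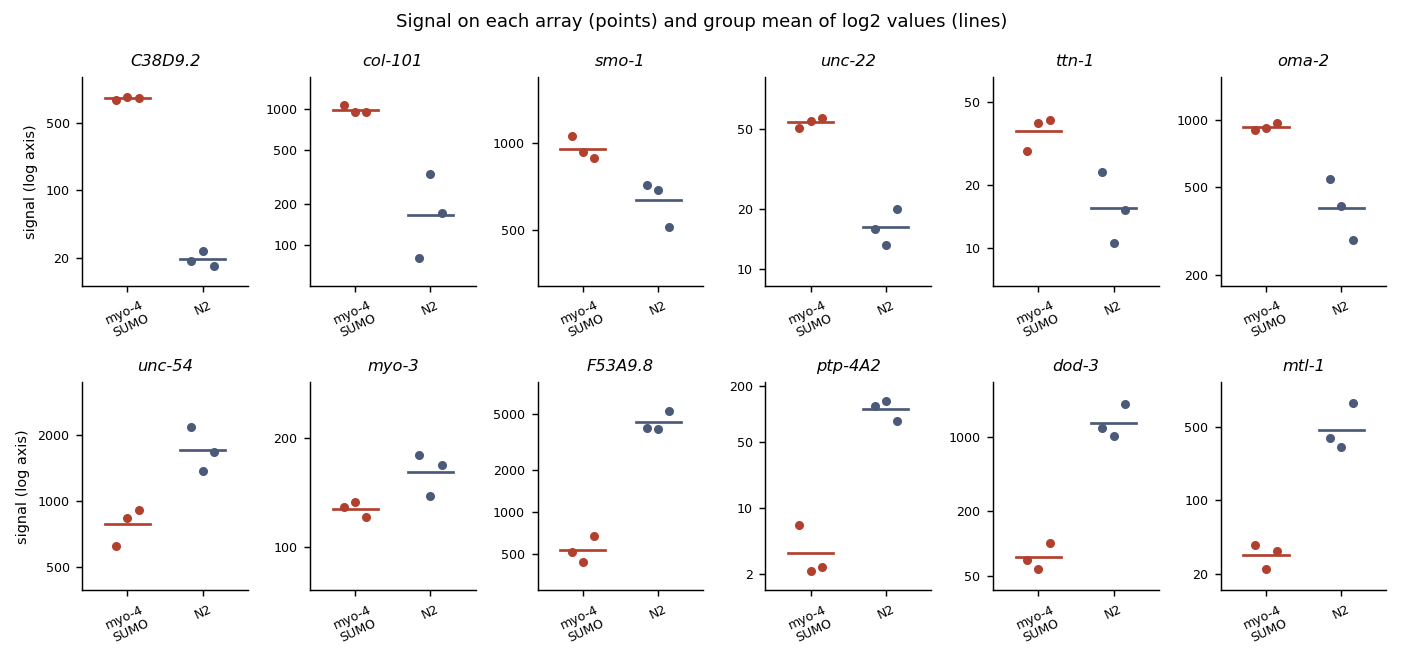
Signal on each array (points, log axis) and the group mean of log2 values (lines) for 12 genes, with myo-4 SUMO left of N2 in each panel. The 3 myo-4 SUMO arrays lie above the 3 N2 arrays in the upper panels and below them in the lower ones.

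Body wall muscle, the tissue where the promoter is active, was mixed. Of 52 muscle genes measured, 15 fell and 6 rose (median -0.14). Under median centring, 8 fell and 8 rose. In aex-3 SUMO, whose transgene has a neuronal promoter, 19 fell and 4 rose against N2 (median -0.29). Falls in this list are therefore not particular to myo-4 SUMO. In RNA of whole animals, fewer cells of a type and less RNA per cell cannot be told apart. Most genes that fell encode the contractile apparatus or act in calcium handling. They include unc-54, the other body wall myosin myo-3 (-0.34), the myosin light chains mlc-1 (-0.39), mlc-2 (-0.33) and mlc-3 (-0.65), tropomyosin lev-11 (-0.59), troponin T genes mup-2 (-0.46) and tnt-2 (-0.49), troponin C pat-10 (-0.36), actin act-4 (-0.33) and calsequestrin csq-1 (-0.74). The call of myo-3 was close to the threshold (adjusted p = 0.039) and ended under median centring, among other settings.

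The muscle genes that rose encode giant filament proteins, adhesion proteins and a chaperone. The unc-22 gene, for the giant kinase twitchin, read 50.7, 55.1 and 56.8 on the myo-4 SUMO arrays, against 15.9, 13.2 and 19.9 on the N2 arrays, a change of 1.65 ± 0.17 (adjusted p = 3.07e-05). No arrays overlapped. The titin gene ttn-1 (1.14), the integrin genes pat-3 (0.76) and pat-2 (0.41), the perlecan gene unc-52 (0.56) and the myosin chaperone unc-45 (0.63) rose too. The sets of probes for the calcium pump sca-1 disagreed. The pair with the higher signal gave -0.84 and -0.68, and the dimmer pair 0.76 and 0.75, all called. This is 1 of 7 genes with probe sets called in opposite directions, among 2246 genes with several. The summed signal of the muscle list was 34833 to 40879 in myo-4 SUMO and 46891 to 50675 in N2.

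The pharynx list moved little, with 3 genes higher and 3 lower of 22, fewer than the shares of all genes. The pharyngeal myosins myo-1 and myo-2 had changes of 0.29 ± 0.30 and 0.14 ± 0.22, and neither was called (adjusted p = 0.457 and 0.623). The organ selector pha-4, a FoxA factor, fell (-0.67), and the pharyngeal troponin genes tni-4 (0.48) and tnc-2 (0.51) rose. No rise was called without N2 replicate 3 (0 genes) or without myo-4 SUMO replicate 3 (0). Leaving out myo-4 SUMO replicate 3 also made 5 genes of the list lower. Of 13 basement membrane genes, 5 rose and 2 fell. The laminin subunits lam-1 (0.73) and epi-1 (0.72) and nidogen nid-1 (0.51) rose, while ost-1, the SPARC gene, fell (-0.58). The number that rose was 2 to 3 without N2 replicates 2 or 3 or without myo-4 SUMO replicates 1 or 2, and the number that fell was 0 and 1 without myo-4 SUMO replicates 2 and 3.

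Intestinal genes fell more often than those of any other tissue list. Of 29 measured, 21 fell, 8 of them at least 2-fold, and 2 rose (median -0.70), and the number that fell was 19 to 22 over all alternatives. Apart from mtl-1, the cathepsin B-like proteases cpr-4 (-2.06), cpr-1 (-1.33) and cpr-5 (-1.11) fell. The gut esterase ges-1 read 101.3, 100.9 and 102 on the myo-4 SUMO arrays, against 179, 219.5 and 280.2 on the N2 arrays, a change of -1.12 ± 0.15 (adjusted p = 0.000144). Intermediate filament genes of the terminal web, ifc-1 (-1.28), ifb-2 (-1.21) and ifd-1 (-0.93), fell, and so did the GATA factors elt-7 (-1.43) and elt-2 (-0.55), which direct intestinal identity. The peptide transporter pept-1 (0.28) and the acid phosphatase pho-1 (0.66) rose, and 0, 0 and 1 genes of the list rose without myo-4 SUMO replicates 1, 2 and 3. The summed signal of the list was 24562 to 29959 in myo-4 SUMO and 41680.1 to 49388 in N2.

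Lysosomal and autophagy genes, some of which the intestine list also holds, fell as well: 28 of 54, with 5 higher (median -0.38). The autophagy kinase unc-51 (-1.12), the ubiquitin-like autophagy protein lgg-1 (-0.95), atg-16.2 (-1.60) and the lysosomal membrane protein lmp-1 (-0.83) fell. The lgg-1 signal was 1831, 1971 and 1915 on the myo-4 SUMO arrays, against 3802, 3299 and 3974 on the N2 arrays. The groups did not overlap. The mucolipin cup-5 (0.79) and beclin bec-1 (0.52) rose, and over the alternatives 2 to 9 genes of the list did, with 3 without N2 replicate 3 and 2 without myo-4 SUMO replicate 2.

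The epidermis makes the cuticle, and its genes were more often lower than the average gene. Of 117 cuticle collagen genes, 52 fell and 7 rose (median -0.40). Members of the family share sequence, so probe sets may read more than 1 of them. The genes col-102 (-2.39), col-37 (-1.80) and col-104 (-1.74) fell the furthest. The body-shape collagen rol-6 read 165, 229.9 and 213 on the myo-4 SUMO arrays, against 389, 426 and 398 on the N2 arrays, a change of -1.003 ± 0.15 (adjusted p = 0.00023). Its groups did not overlap, and rol-8 fell by nearly the same amount (-1.002). Besides col-101 and col-143, the collagens col-142 (0.91), col-132 (0.62) and col-8 (0.56) rose. Under quantile normalization 15 collagens rose, and without myo-4 SUMO replicate 2 there were 4.

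Of 70 moulting and apical matrix genes, 29 fell and 4 rose (median -0.40). They include the hedgehog-related genes grl-25 (-1.35), grl-21 (-1.16) and wrt-4 (-1.05), the cuticulin-like gene cutl-24 (-1.26) and the protease inhibitor gene mlt-11 (-0.39), all lower. The nuclear receptor nhr-23, a driver of the moulting cycle, rose (0.47), and so did the cuticulin cut-3 (1.66). The 4 rises were 2 without myo-4 SUMO replicate 1 and 2 without replicate 3, and both fits ended the call of cut-3. Of 8 genes of adult cuticle and developmental timing, 4 fell, among them the period homologue lin-42 (-0.78) and the timing factor hbl-1 (-0.55), a count of 1 to 4 over the alternatives that was 2 without N2 replicate 3 and 2 without myo-4 SUMO replicate 3.

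Neuronal genes fell in 27 of 58 cases and rose in 3 (median -0.37). The genes that process neuropeptides, egl-3, a proprotein convertase (-1.04), and sbt-1, its chaperone (-0.99), fell. So did the release machinery genes unc-64, syntaxin (-0.91), ric-4, SNAP-25 (-0.57), snb-1, synaptobrevin (-0.25), and unc-13 (-0.36). The egl-3 signal was 152, 174 and 219 on the myo-4 SUMO arrays, against 484, 309 and 340.2 on the N2 arrays, a change of -1.04 ± 0.18 (adjusted p = 0.00063). All transgenic arrays were lower. The octopamine and tyramine enzymes tbh-1 (0.93) and tdc-1 (0.89) and the peptide gene flp-1 (0.81) rose.

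The 22 FMRFamide-like genes (flp) measured are part of the neuron list and of its counts, and 14 of them fell and 1 rose. Of 43 neuropeptide-like genes (nlp), which that list does not hold, 23 fell, 10 at least 2-fold, and 1 rose. The genes nlp-51 (-1.93), nlp-81 (-1.75) and nlp-14 (-1.74) fell the furthest. Genes whose symbols have the form of chemoreceptor genes, of which 66 of 1324 were bright enough to test, were rarely called, with 6 higher (3 without myo-4 SUMO replicate 3) and 8 lower. The small lists of glia (1 of 3 lower), the excretory canal (1 higher and 2 lower of 7) and coelomocytes (1 gene, cup-4, 0.65) rest on too few genes to describe a tissue. The pan-neuronal unc-119 had a change of -0.03 ± 0.20 and was not called. The change of aex-3, a regulator of vesicle release, was 0.08 (adjusted p = 0.924), and -0.96 without N2 replicate 1, on which its signal was 1.92, compared with 31.4 and 27.997 on the other N2 arrays.

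Genes of oocytes, of germ line RNA regulation and of meiosis were mostly higher. Of 19 oocyte and eggshell genes, 17 rose and 0 fell, with a median of 0.89. The oocyte maturation factor oma-2 read 899, 920.4 and 971 on the myo-4 SUMO arrays, against 543, 409 and 287 on the N2 arrays, a change of 1.22 ± 0.17 (adjusted p = 0.000203). Every transgenic array was above every N2 array, and the N2 arrays were spread widely. The yolk receptor rme-2 (1.22), the sperm-binding proteins egg-1 (1.06) and egg-2 (1.202) and the chitin synthase chs-1 (1.03) rose too. The summed signal of the list was 18270.4 to 20379.5 in myo-4 SUMO and 8932 to 14866 in N2.

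Of 29 RNA regulators of the germ line, 24 rose and 0 fell (median 0.72). Among these were the Nanos homologues nos-1 (1.19) and nos-2 (1.16), the P granule proteins deps-1 (1.03) and pgl-3 (0.78), and pie-1 (0.92), which keeps germ cells from somatic fates. Of 22 meiosis genes, 18 rose and 0 fell (median 0.58), such as him-14 (1.04), a MutS homologue, and the synaptonemal complex genes syp-1 (0.86) and syp-4 (0.86). Of 25 cell cycle and replication genes, 22 rose and 0 fell (median 0.62), with cyclin E cye-1 (0.99), the origin protein orc-1 (0.98) and the helicase subunit mcm-7 (0.70) as examples. The mcm-7 signal was 797, 785 and 830.1 on the myo-4 SUMO arrays, against 660.2, 467 and 389 on the N2 arrays. The transgenic arrays were all higher. Over the alternatives the number that rose was 16 to 19 oocyte and eggshell genes, 18 to 28 germ line RNA regulators, 13 to 20 meiosis genes and 17 to 22 cell cycle genes, and 0 genes of these 4 lists fell under any of them.

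Argonaute genes, which act in small RNA silencing, rose in 9 of 17 cases, with hrde-1 (1.19) and the piRNA-binding prg-1 (0.83) among them, while sago-1 fell (-0.96). Of 5 yolk protein genes, which the intestine of adults expresses, 3 rose, with vit-1 at 1.39, a count of 1 to 5 over the alternatives that was 1 without N2 replicate 3 and 1 without myo-4 SUMO replicate 2. Of 60 sperm genes, 9 fell and 2 rose (median -0.21). Sperm genes called lower numbered 1 with median-centred arrays, 3 and 23 without N2 replicates 1 and 3, and 1 without either myo-4 SUMO replicate 1 or 3. Of 57 embryonic fate regulators on the array, 19 were bright enough to test. Of these 5 rose (26.3%, near the 24.2% of all genes), including the T-box gene tbx-9 (1.33) and the caudal homologue pal-1 (0.86). The gene sdz-24 fell (-1.88), and 2 regulators fell without N2 replicate 1. Without myo-4 SUMO replicate 1 or replicate 2, 3 regulators rose.

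**Figure D3:**
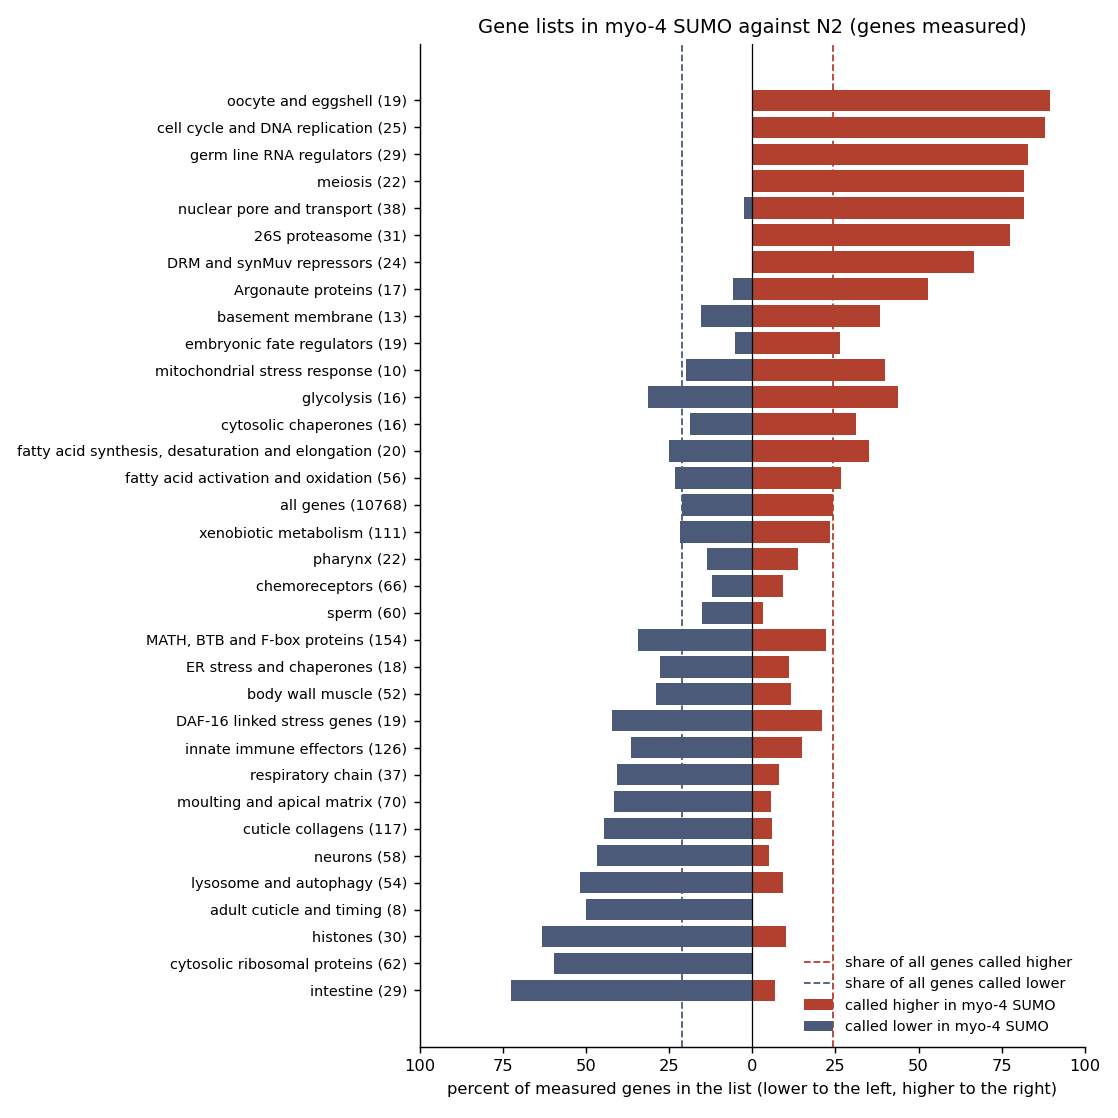
Percent of the measured genes of each list (number in parentheses) called higher (red, to the right) or lower (blue, to the left) in myo-4 SUMO against N2, for lists with at least 8 genes measured, with dashed lines at the shares of all genes, 24.2% and 21.1%. Oocyte, germ line RNA regulator, replication and nuclear pore lists lie far to the right, and intestine, ribosome and histone lists far to the left.

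Genes of the nuclear pore, the proteasome and transcriptional repression were mostly higher. Of 38 genes of the nuclear pore and nuclear transport, 31 rose and 1 fell (median 0.59). The nucleoporins npp-16 (0.92), npp-12 (0.89) and npp-8 (0.88) and the importin ima-2 (0.70) rose, while the exportin xpo-1 fell (-0.40), a call that ended under median centring and without each array other than N2 replicate 1. The npp-16 signal was 186, 205 and 239.5 on the myo-4 SUMO arrays, against 111.97, 121 and 98.1 on the N2 arrays. Its groups did not overlap. Of 31 proteasome genes, 24 rose and 0 fell (median 0.39), with the core subunit pas-5 (0.69) and the lid and base subunits rpn-9 (0.58) and rpt-5 (0.58) as examples. Of 24 genes of the DRM and synMuv list, most of which encode repressors of transcription, 16 rose and 0 fell (median 0.54). These include lin-54 (1.002), the E2F partner dpl-1 (0.80) and the retinoblastoma homologue lin-35 (0.69). Markers of the germ line moved with these lists: 59 of 70 genes of the oocyte, germ line and meiosis lists rose and 0 fell, and their part in these counts was not tested.

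Histone genes fell. Of 30 measured, 19 fell and 3 rose (median -0.74), and 9 fell by at least 2-fold. Histone genes of 1 type are close copies, so probe sets may read several of them. The his-4 signal was 52.8, 48.4 and 56.3 on the myo-4 SUMO arrays, against 290.3, 229 and 295 on the N2 arrays, a change of -2.33 ± 0.14 (adjusted p = 4.13e-07). The his-39 signal was 80.4, 83.5 and 89.5 on the myo-4 SUMO arrays, against 322, 340.0 and 399 on the N2 arrays, a change of -2.04 ± 0.12. In both the groups were far apart and the arrays of each group close together. The linker histone gene hil-1 fell (-1.50), while hil-4 (0.73), hil-5 (0.56) and his-74 (0.67) rose.

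Small shifts of highly expressed housekeeping genes depended on the scaling. Of 62 cytosolic ribosomal protein genes, 37 fell (median -0.29), but 1 fell under median centring and 10, 22 and 20 without N2 replicates 1, 2 and 3. Without myo-4 SUMO replicates 1 and 3 the counts were 4 and 15. Of 37 respiratory chain genes, 15 fell and 3 rose, compared with 3 and 5 under median centring, and 8 fell without myo-4 SUMO replicate 1. The complex III subunit ucr-2.1 (-0.76) and the Rieske protein isp-1 (-0.42) fell, and the assembly factor cox-11 rose (0.77). By contrast, mitochondrial ribosomal protein genes were more often higher, 15 of 33 for the large subunit (mrpl) with 0 lower, and 13 of 24 for the small subunit (mrps) with 1 lower. Without N2 replicate 1, 1 mrpl gene was lower.

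The stress lists were divided. The mitochondrial chaperones hsp-60 (1.01) and hsp-6 (0.90) rose, as did the protease lonp-1 (0.84), 4 of 10 genes of that list, with 2 lower (1 without N2 replicate 3 and 0 without myo-4 SUMO replicate 1). The hsp-60 signal was 817, 912 and 914 on the myo-4 SUMO arrays, against 409.9, 650.3 and 313 on the N2 arrays, a change of 1.01 ± 0.20 (adjusted p = 0.00147). Its groups did not overlap. Of 16 cytosolic chaperone genes, 5 rose, including the heat shock factor hsf-1 (0.74) and hsp-110 (0.57), and 3 fell, including the small heat shock genes hsp-12.3 (-0.88) and hsp-16.41 (-0.82). Under median centring 9 rose, and without N2 replicate 3 there were 3. In the endoplasmic reticulum list, 2 of 18 genes rose (0 to 5 over the alternatives, with 4 without N2 replicate 1 and 1, 0 and 0 without myo-4 SUMO replicates 1, 2 and 3) and 5 fell, with the sensors atf-6 (-1.35) and pek-1 (-1.03) and the transcription factor xbp-1 (-0.53) among them. Of 19 genes linked to DAF-16, 8 fell and 4 rose, with dod-3 and mtl-1 at one end and dod-19 (1.16) at the other.

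Genes of lipid enzymes moved in both directions. The fatty acid desaturases fat-3 (-1.26) and fat-4 (-0.64), which make polyunsaturated fatty acids, fell, while the palmitoyl-CoA desaturase fat-5 (1.36) and the elongases elo-5 (1.23) and elo-2 (1.01) rose. The fat-3 signal was 982, 1059 and 1221 on the myo-4 SUMO arrays, against 2368, 2404 and 3047 on the N2 arrays. The fat-5 signal was 63.99, 66.3 and 54.1 on the myo-4 SUMO arrays, against 17.1, 37.05 and 18.7 on the N2 arrays. In each the groups stood apart, in opposite directions. In that list 7 of 20 rose and 5 fell, against counts under median centring of 8 and 2. Of 56 genes of fatty acid activation and oxidation, 15 rose and 13 fell, near the shares of all genes. Among those that rose were ech-7 and hacd-1 (1.43). Among those that fell were the carnitine palmitoyltransferase cpt-4 (-1.80) and the acyl-CoA synthetase acs-2 (-1.57). Of 16 glycolytic genes, 7 rose and 5 fell, and with median-centred arrays 8 and 1. Without myo-4 SUMO replicate 3, 4 glycolytic genes rose, and without replicate 1, 2 fell. The hexokinase hxk-1 (0.92) rose and the pyruvate kinase pyk-2 (-0.58) fell.

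Genes facing the environment spread widely in both directions. Of 126 innate immune effector genes bright enough to test, 46 fell and 19 rose (median -0.25). Besides the lectins above, the lysozyme ilys-3 (-2.03) and the saposin-like spp-1 (-1.82) fell, while lys-10, ilys-2 (1.41) and irg-8 (1.38) rose. Of 111 xenobiotic metabolism genes, 26 rose and 24 fell, near the shares of all genes. The cytochromes P450 cyp-37B1 (-2.81) and cyp-34A9 (-2.55) and the flavin-containing monooxygenase fmo-2 (-2.08) fell, and the glucuronosyltransferase ugt-16 (2.08) and the P450 gene cyp-35A3 (1.66) rose. Of 154 MATH, BTB and F-box genes, which include adaptors of ubiquitin ligases, 53 fell and 34 rose. With median-centred arrays 40 fell and 44 rose, and without myo-4 SUMO replicate 1 there were 20 rises.

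Beyond the lists, genes were grouped by the letters of their symbols, which gave 147 classes with at least 8 genes measured. In the SR splicing factor class (rsp) 8 of 8 rose and 0 fell, with a median of 0.76, and in the Integrator complex class (ints) 7 of 8 and 0. The rsp-4 signal was 686, 668 and 667 on the myo-4 SUMO arrays, against 398, 397 and 328 on the N2 arrays. The transgenic arrays were all higher. The RNA helicase class ddx (7 of 9 higher and 0 lower), the pre-mRNA processing class prp (9 of 12 and 0) and the translation initiation factor class eif (12 of 21 and 0) moved the same way. So did the SET domain class of histone methyltransferases (set), with 13 of 19 higher and 1 lower. The rises of that class were 7 without N2 replicate 3 and 8 without each single myo-4 SUMO replicate. In the prp class 5 genes rose under quantile normalization, and in the eif class 7 when the 6 arrays were fitted alone.

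The largest class by number of falls was that of the nuclear hormone receptors (nhr), a family of ligand-linked transcription factors that is expanded in worms. Of those measured, 59 fell (49.6%), 26 of them at least 2-fold, and 7 rose (median -0.48). With the filter at the 60th percentile, which tests fewer genes, 28 fell. The 7 rises were 4 without N2 replicate 3 and 4, 3 and 4 without myo-4 SUMO replicates 1, 2 and 3. On chromosomes other than X, 54 of 103 nhr genes fell. The nhr-99 signal was 14.3, 18.2 and 25.9 on the myo-4 SUMO arrays, against 73.6, 63.6 and 125 on the N2 arrays, a change of -2.06 ± 0.27 (adjusted p = 0.000124). The groups did not overlap, and nhr-88 (-1.82) and nhr-35 (-1.57) fell too. The probe sets of nhr-2, which acts in the early embryo, all rose, by 0.47 at the brightest and by 1.41 and 2.14 at the others.

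In the sma class 7 of 8 fell and 0 rose. The falls were 4 under median centring and 4 without myo-4 SUMO replicate 1. This class holds much of the DBL-1 pathway, a BMP-like pathway that sets body size: the receptor sma-6 (-0.51), the Smads sma-2 (-1.18), sma-3 (-0.72) and sma-4 (-0.53), the cofactor sma-9 (-0.90) and the membrane protein sma-10 (-1.49). The sma-10 signal was 52.9, 51.3 and 64.4 on the myo-4 SUMO arrays, against 169.7, 129 and 188 on the N2 arrays, a change of -1.49 ± 0.17 (adjusted p = 4.41e-05). All transgenic arrays were lower for sma-10, while those of sma-2 overlapped with N2. In the bus class, named for mutants with altered surface binding of bacteria, 9 of 10 fell and 0 rose. The falls of that class were 2 with the filter at the 60th percentile. In the transthyretin-like class (ttr) 20 of 34 fell and 2 rose, in the aspartyl protease class (asp) 8 of 9 fell, and in the lipase class (lips) 6 of 8. Without N2 replicate 1, 1 ttr gene rose. Classes named here were picked for their values.

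Calls were not spread evenly over the chromosomes. On X, 455 of 1467 genes measured were lower (31%) and 108 higher (7.36%), with a median of -0.24. On the 5 autosomes together 27% of 9270 genes were higher and 19.6% lower, with a median of 0.05. Chromosome I had the largest share of rises (32.9%) and chromosome V, after X, the largest share of falls (25.01%). Among changes of at least 2-fold X did not stand apart: 7.498% of its genes fell and 2.045% rose. Single autosomes ranged from 2.434% (I) to 7.988% (V) for such falls and from 1.856% (III) to 3.295% (V) for such rises. Under median centring 11.8% of X genes were higher and 23.4% lower, compared with 35.8% and 13.3% on the autosomes. Markers of the germ line moved along with this: none of the 70 measured genes of the oocyte, germ line and meiosis lists is on X (0 of 70), and their part in the result was not tested. Calls also depended on brightness. Of the genes in the lowest of 4 equal bins of signal, 5.8% were higher and 16.2% lower, and of those in the brightest bin 35.6% and 22.5%.

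**Figure D4:**
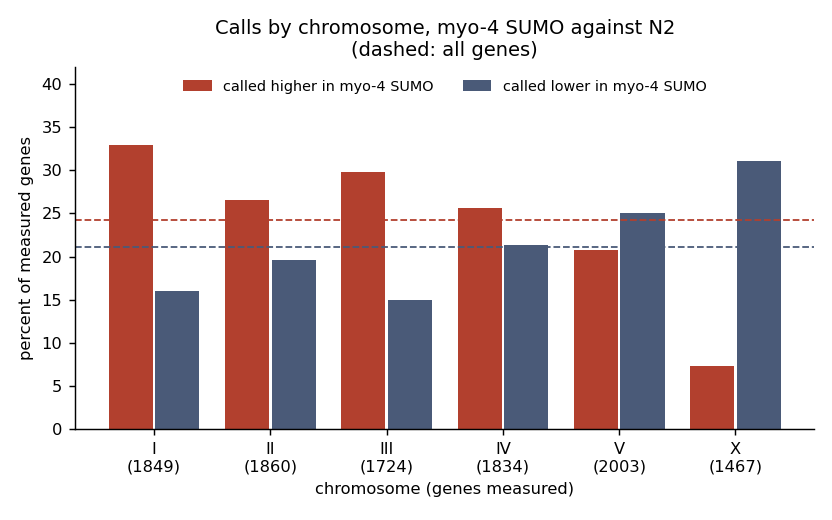
Percent of the measured genes on each chromosome (number in parentheses) called higher (red) or lower (blue) in myo-4 SUMO against N2, with dashed lines at the shares of all genes. On X the order of the bars is turned round, with 7.36% higher and 31% lower.

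Some neighbouring genes moved together. There were 13 runs of at least 3 genes next to each other among the genes measured, all called in 1 direction by at least 2-fold. The longest held 5 genes on chromosome II, K05F6.10, math-38, bath-46, bath-26 and bath-47, which fell by 2.96 to 1.48. Genes of this family share sequence, so their probe sets may not be independent. F47B8.2, F47B8.3 and F47B8.4 on chromosome V fell by 3.42 to 1.42. On chromosome II K01A2.3, far-7, which encodes a fatty acid and retinol binding protein, and K01A2.10 fell by 2.51 to 1.21. The math-38 signal was 19.6, 12.98 and 24.96 on the myo-4 SUMO arrays, against 126, 90.7 and 192 on the N2 arrays. The far-7 signal was 73.1, 59.3 and 89.6 on the myo-4 SUMO arrays, against 398, 330.2 and 584 on the N2 arrays. In each the N2 arrays were all higher.

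A further comparison asked which of these transcripts differed between the muscle-promoter and the neuron-promoter line. Of 14204 probe sets, 34 (0.239%) passed the test of that difference, 26 higher (0.183%) and 8 lower (0.0563%) in myo-4 SUMO. Taken per gene, 0.279% did. The comparisons of the lines with N2 share the N2 arrays. The test between the lines also uses the spread of the N2 arrays, whose replicates correlated least. The small count therefore does not show that the lines are equal. Of the 52 body wall muscle genes and of the 58 neuron genes, 0 and 0 differed between the lines, and the muscle median was 0.12. The unc-54 signal was 628, 842 and 909.7 in myo-4 SUMO and 1071, 988 and 1123 in aex-3 SUMO, a difference of -0.43 ± 0.17 (adjusted p = 0.453). That of smo-1 was 1055, 927 and 887 in myo-4 SUMO and 957, 1078 and 1018 in aex-3 SUMO, a difference of -0.09 ± 0.13 (adjusted p = 0.9), and the arrays overlapped. The count of 34 ran from 13, without myo-4 SUMO replicate 2, to 92, without N2 replicate 1, and 11 of the 34 were called in each of the 9 fits that left out 1 array.

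C38D9.2 read 19.2, 18.5 and 13.6 in aex-3 SUMO, level with N2, and its difference between the lines was 5.61 ± 0.16 (adjusted p = 3.58e-10). The unnamed probe set 184014_s_at read 0.92, 0.794 and 0.528 in aex-3 SUMO (difference 6.53 ± 0.29), and 184103_s_at read 104.3, 109 and 110.2 (difference 2.63 ± 0.23). Only for the last was the aex-3 SUMO level between the other groups. The tubulin gene tbb-6 read 110.2, 126 and 82.3 on the myo-4 SUMO arrays, 32.6, 24.9 and 25.8 on the aex-3 SUMO arrays and 18.9, 29.8 and 20.7 on the N2 arrays, and its difference between the lines was 1.86 ± 0.20 (adjusted p = 0.000639). K02B12.6 read 60.1, 79.8 and 52.3 on the myo-4 SUMO arrays, 12.63, 14.03 and 12.03 on the aex-3 SUMO arrays and 9.43, 14.04 and 8.06 on the N2 arrays (2.16 ± 0.23 between the lines). Both were high in myo-4 SUMO alone of the groups, as was Y41C4A.32 (2.09 ± 0.20 between the lines).

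In the opposite direction, ptp-4A2 read 6.58, 2.12 and 2.354 in myo-4 SUMO and 87.2, 72.4 and 67.7 in aex-3 SUMO, a difference of -3.95 ± 0.28 (adjusted p = 9.39e-06). Its aex-3 SUMO arrays were not called different from N2 (adjusted p = 0.0991). The lectin clec-48 was lower in myo-4 SUMO than in aex-3 SUMO by 0.97 on the log2 scale (adjusted p = 0.0114), and both lines lay below N2. The same order held for sup-36 (-0.87 ± 0.12, adjusted p = 0.00918) and dod-3 (-1.66 ± 0.29, adjusted p = 0.032). Of the 9 fits that left out 1 array, 5, 6 and 5 called clec-48, sup-36 and dod-3 between the lines. For cTel55X.1, on X, both lines were lower than N2, with the deeper fall in aex-3 SUMO: it read 210.3, 238 and 239 on the myo-4 SUMO arrays, 33.2, 39.6 and 33.6 on the aex-3 SUMO arrays and 346, 314 and 335 on the N2 arrays. The gene rips-1 read 51.5, 56.4 and 74.9 on the myo-4 SUMO arrays, 229.6, 218 and 233 on the aex-3 SUMO arrays and 50.2, 67.5 and 40.6 on the N2 arrays, high in aex-3 SUMO only. The cuticle collagens col-14 (0.74 ± 0.12) and col-48 (0.69 ± 0.12) were higher in myo-4 SUMO than in aex-3 SUMO, and lower in both lines than in N2. Their differences between the lines were called in 5 and 3 of the 9 fits that left out 1 array.

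**Figure D5:**
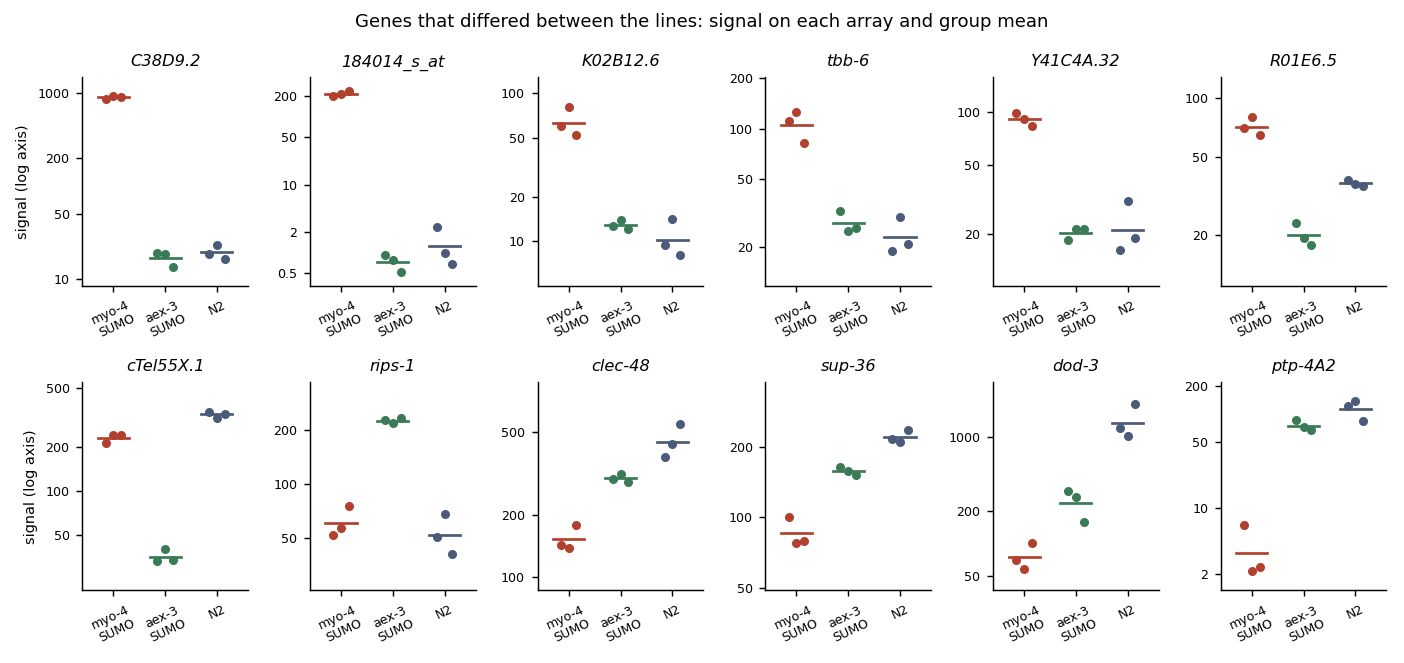
Signal on each array (points, log axis) and the group mean of log2 values (lines) for 12 probe sets that differed between the lines, with myo-4 SUMO, aex-3 SUMO and N2 from left to right. C38D9.2, 184014_s_at, K02B12.6, tbb-6 and Y41C4A.32 are high in myo-4 SUMO alone, ptp-4A2 is low there alone, and cTel55X.1 and rips-1 stand out in aex-3 SUMO.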

How the data were processed

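Expression was measured on 9 arrays, 3 each of myo-4 SUMO, aex-3 SUMO and N2. The values deposited by the authors are signal intensity on a linear scale, 1 value per probe set and array. They come from GCOS according to the submitters' processing notes, without a version. RNA was isolated with the RiboPure kit and 10 ug of total RNA was labelled as cRNA, per the labels' protocols. The arrays' 2% trimmed means were within 0.00889% of each other, so nothing was rescaled. Detection calls are not used here.

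Control probe sets (77 of 22625) were left out. A probe set was tested if its signal lay above the array's 40th percentile on 3 or more of the 9 arrays, which held for 14204 of 22548. The pseudocount of log2(signal + 1.623), the median over arrays of the 10th percentile, understates changes of dim genes. All 9 arrays entered 1 limma fit (lmFit, then eBayes with an intensity trend, in limma 3.58.1 under R 4.3.3; 6 residual and 6.88 prior degrees of freedom), with two-sided p adjusted by Benjamini-Hochberg within each contrast, at 0.05. The p-values rest on the spread between replicate populations, pooled for each probe set over the 3 groups. The spread of the N2 arrays therefore also enters the test between the transgenic lines.

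Names come from the platform's probe table, which can be old, with symbols updated through gene identifiers; 20766 probe sets name 1 gene, 887 several and 895 none. Lists use 1 probe set per gene, the one with the highest mean signal over the 9 arrays (10768 genes). The members, the 38 lists and the 147 symbol classes were chosen with earlier results of these data known. Named genes are the 10 highest and 10 lowest changes among calls whose groups do not overlap, the same among probe sets with a mean signal of at least 200, the SUMO pathway, promoter and marker genes, up to 3 members per list and direction with the smallest p, members of the 6 classes with the largest shares of calls each way, the longest runs and the genes that differed between lines. Other list members were named for their known roles after their values were seen.

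Same replicate numbers were not treated as pairs: deviations of same-numbered arrays correlated at -0.018, 0.029 and 0.029. The fit was tested on simulated data for myo-4 SUMO against N2 over 14204 probe sets, where it recovered 34.3% of 67 changes of 1.5-fold, 73.1% of 67 of 2-fold and 90.9% of 66 of 4-fold, with 6 false calls. The simulation gave every group the same spread and changed few probe sets, whereas 44.4% were called here. It therefore does not give the rate of false calls in these data. The alternatives were median centring, quantile normalization, other filters (none, or the 60th percentile), pseudocounts of 0.5 and 16, no intensity trend, the 6 arrays of the comparison alone, a replicate block and leaving out each array.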

Additional observations from a re-analysis of the deposited data

Results flagged for a closer look

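For 4 genes the lines moved in opposite directions, each line called different from N2 and the lines called different from each other. R01E6.5, on X, read 70.1, 79.3 and 64.6 in myo-4 SUMO, 23.2, 19.5 and 17.8 in aex-3 SUMO and 37.96, 36.3 and 35.8 in N2, and its difference between the lines was 1.75 (log2, myo-4 SUMO minus aex-3 SUMO; limma, adjusted p = 9.05e-05). No arrays of the 3 groups overlapped. The difference was 1.44 for mtre-1 (adjusted p = 0.0213), 1.26 for the lectin gene clec-174 (adjusted p = 0.00629) and 1.18 for C25G4.7 (adjusted p = 0.00881). These 3 were called between the lines in 4, 8 and 7 of the 9 fits that left out 1 array. The clec-174 probe set may also read related genes.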

How the results depend on the processing

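The number of probe sets called in myo-4 SUMO against N2, 6300, ran from 4779 to 6849 without single arrays and 5230 to 6596 under the other settings, which is within 1.5 times of it. The count between the lines, 34, was 21 without an intensity trend. Leaving out single arrays it ran from 13 to 92: it was 92 and 84 without N2 replicates 1 and 3, 18 without aex-3 SUMO replicate 1 and 18, 13 and 18 without myo-4 SUMO replicates 1, 2 and 3. With the replicate number as a block the counts were 5971 and 36. Same-numbered arrays share only a number. For the named genes, 3742 of the alternative values kept direction and side of the threshold, 164 lost the call, 2 gained it and 1 turned: aex-3, whose change of 0.08 became -0.96 without N2 replicate 1 (adjusted p = 0.00443), where its signal on the array left out was 1.92, and ran from -0.13 to 0.65 elsewhere. Leaving out 1 array other than N2 replicate 1 ended, in at least 1 fit, the calls of aos-1, ulp-4, unc-52, tni-4, tnc-2, pha-4, ost-1, pept-1, pho-1, cut-3, hbl-1, flp-1, tdc-1, xpo-1, hsp-16.41 and myo-3. With the filter at the 60th percentile, which tests fewer genes, 24 in place of 53 MATH, BTB and F-box genes and 15 in place of 24 xenobiotic genes fell. Without myo-4 SUMO replicate 1, 20 in place of 34 MATH, BTB and F-box genes rose. Genes with signals near the floor have changes set largely by the pseudocount. The number of arrays limits precision throughout.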

Other observations

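Smaller symbol classes moved too, and those given here were picked after their values were seen. In the deubiquitinase class (usp), enzymes that take ubiquitin off proteins, 6 of 8 genes measured rose and 0 fell in myo-4 SUMO against N2, with a median change of 0.45 (log2), but 3 rose without myo-4 SUMO replicate 1. In the class of chromodomain proteins (cec) 6 of 8 rose and 1 fell, the last being cec-1 (-0.81), while cec-4, which tethers chromatin at the nuclear periphery, rose (0.68). The cell division class (cdc) had 11 of 16 genes higher and 0 lower, and the him class, named for mutants with many males, 7 of 10 and 0. Without myo-4 SUMO replicate 1 these counts of rises were 6 and 4. Without N2 replicate 1, 1 cdc gene fell. Falls prevailed in the saposin-like class (spp), with 8 of 12 lower (5 under median centring) and 1 higher, and in the C-type lectin class (clec), with 27 of 81 lower and 13 higher. In the F-box class fbxa 25 of 75 fell and 9 rose. The rises were 14 without N2 replicate 1 and 3 without myo-4 SUMO replicate 1, and the falls were 9 with the filter at the 60th percentile. Genes of 1 family share sequence, so these counts may include probe sets that read each other's transcripts.

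Other runs of neighbouring genes moved together by at least 2-fold. On chromosome V, C17E7.9, C17E7.4 and the cytochrome P450 gene cyp-35A5 rose by 1.40 to 2.51, and dod-19, irg-8 and Y39D8A.1 by 1.14 to 1.38. The histone genes his-4, his-3 and his-2, on the same chromosome, had changes of -2.33 to -1.06, and the nuclear hormone receptors nhr-103, nhr-18 and nhr-134 of -1.57 to -1.23. On X, where falls outnumbered rises, R04D3.2, R04D3.4 and R04D3.3 rose by 1.01 to 1.31.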
